A study of Mus musculus with 6 samples.

Results

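The genes described here are the semaphorins, their plexin and neuropilin receptors, the ephrins and Eph receptors, the Slits and Robos, and the netrins with their Unc5 receptors, as expressed by C2C12 cells at rest and after cyclic stretch. They were taken by symbol, which gave 68 of the 22375 genes in the deposited table. Of these, 44 averaged at least 0.5 FPKM across the 6 libraries and were tested. FPKM is the number of sequenced fragments of a gene relative to its transcript length and to all mapped fragments of a library. C2C12 is an established mouse cell line of proliferating muscle precursors, which can be made to fuse into myotubes. The control cells (CON group, 3 libraries) were not stretched, and the other cells (4H group, 3 libraries) were put under cyclic stretch to 15% elongation for 4 h. Both groups are the same line in culture, with no transgene, knockdown or drug in the labels, and the model holds no nerves or vessels. The labels call the libraries of a group replicate biosamples without saying that they came from separate cultures, so p-values measure the spread between these samples, which may be technical.

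Guidance molecules are ligands and receptors that steer growing axons, and many other cells use them to control adhesion, shape and migration. Semaphorins are secreted or held at the membrane and signal through plexins, with neuropilins as co-receptors for most of the secreted class 3 proteins. Ephrins and Eph receptors both sit in the membrane, so that signals pass between touching cells, in both directions. Slits signal through Robos, and netrins through Unc5 receptors or DCC. In skeletal muscle these families are known from the patterning of motor nerves and vessels, from the migration of muscle precursors and from satellite cells.

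The FPKM that a single fragment is worth was taken from the lowest genes (under 0.1 FPKM) and varied by no more than 1.61% between the 6 libraries. Only ratios near 1 between libraries were searched, so a large difference in depth could not have been found. FPKM summed to between 395790 and 397260 in the CON libraries and between 385146 and 387516 in the 4H libraries. Of the 8 myoblast markers, 7 reached 0.5 FPKM, with Pax7 below it. The summed level of this list lay between 163.2 and 168.3 FPKM in the CON group and between 206.7 and 216.2 FPKM in the 4H group, and 5 of the 7 passed the adjusted p in the higher direction. Myod1 rose from 5.13 ± 0.573 to 18.2 ± 0.738 FPKM, while Myf5 fell from 15.8 ± 0.851 to 9.82 ± 1.13 FPKM and Ncam1 did not pass. Differentiated muscle markers, with Mymx at 0, summed to between 1.80 and 2.40 FPKM in the CON group and between 3.09 and 3.74 FPKM in the 4H group. Mymk and Acta1 rose, while Myog, under the filter, was lower in every 4H library (0.217 ± 0.0743 and 0.0265 ± 0.0459 FPKM) and Tnnt3, also under it, was higher in each (0.0779 ± 0.0722 and 0.401 ± 0.184 FPKM). Myh3 and Ckm averaged under 0.1 FPKM in both groups. None of the 6 endothelial markers reached 0.5 FPKM, Cldn5 and Emcn were at 0 in all libraries, and the list summed to 0.101 to 0.122 FPKM in the CON group and 0.254 to 0.387 FPKM in the 4H group. Of 6 neuronal markers, Stmn2 and Nefl were expressed while Rbfox3 and Elavl4 were at 0, and the list summed to 67.9 to 78.4 FPKM in the CON group and 92.0 to 99.5 FPKM in the 4H group, with Nefl at 18.7 ± 1.27 and 46.6 ± 4.70 FPKM and Stmn2 at 53.8 ± 4.27 and 48.6 ± 1.26 FPKM, respectively. The glial list summed to at most 0.996 FPKM with Sox10 at 0. In the blood cell list Ptprc, Adgre1 and Hbb-bs were at 0 and Cd68 carried the sum, from 6.73 to 8.51 FPKM in the CON group and from 15.0 to 17.6 FPKM in the 4H group. Fibroblast markers summed to 3.78 to 4.19 and 5.99 to 7.65 FPKM, respectively, and the 3 reference genes found in the table summed to 1081 to 1109 and 1927 to 1941 FPKM. This sum was carried by Actb, while Gapdh (24.4 ± 1.71 and 23.8 ± 3.56 FPKM) and Tbp (8.61 ± 2.06 and 7.30 ± 1.96 FPKM) did not pass. The part of these markers in the results below was not tested.

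Among the 44 members tested, 22 were higher and 8 lower after stretch with the adjusted p as the only criterion (at most 0.05), and 14 did not pass (limma on log2(FPKM + 0.5), Benjamini-Hochberg adjustment over all 11593 genes tested). This is 68.2% of the members, while 46.7% of all genes tested passed (22.6% higher and 24.1% lower). Sema3d, which reached the filter only through the 4H group, is among the 22 and among the members without overlap below. With a log2 fold change of at least 1 as well, 5 members were higher and 1 was lower, or 13.6% of the members against 3.88% of all genes, where 2.61% were higher and 1.28% lower. The 5 that rose were Sema7a, Sema6d, Sema6a, Epha4 and Efnb2, and Robo2 fell. The groups did not overlap for 32 members, 23 of them higher and 9 lower in the 4H libraries, which is 72.7% against 56.7% of all genes (27.5% higher and 29.2% lower). The median log2 fold change of the members was 0.22, and that of all genes tested was -0.01. Fold changes on the log2(FPKM + 0.5) scale understate the change of genes expressed at a low level. In bulk RNA, a change in the share of cells that express a gene and a change in its RNA per cell cannot be told apart.

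**Figure D1:**
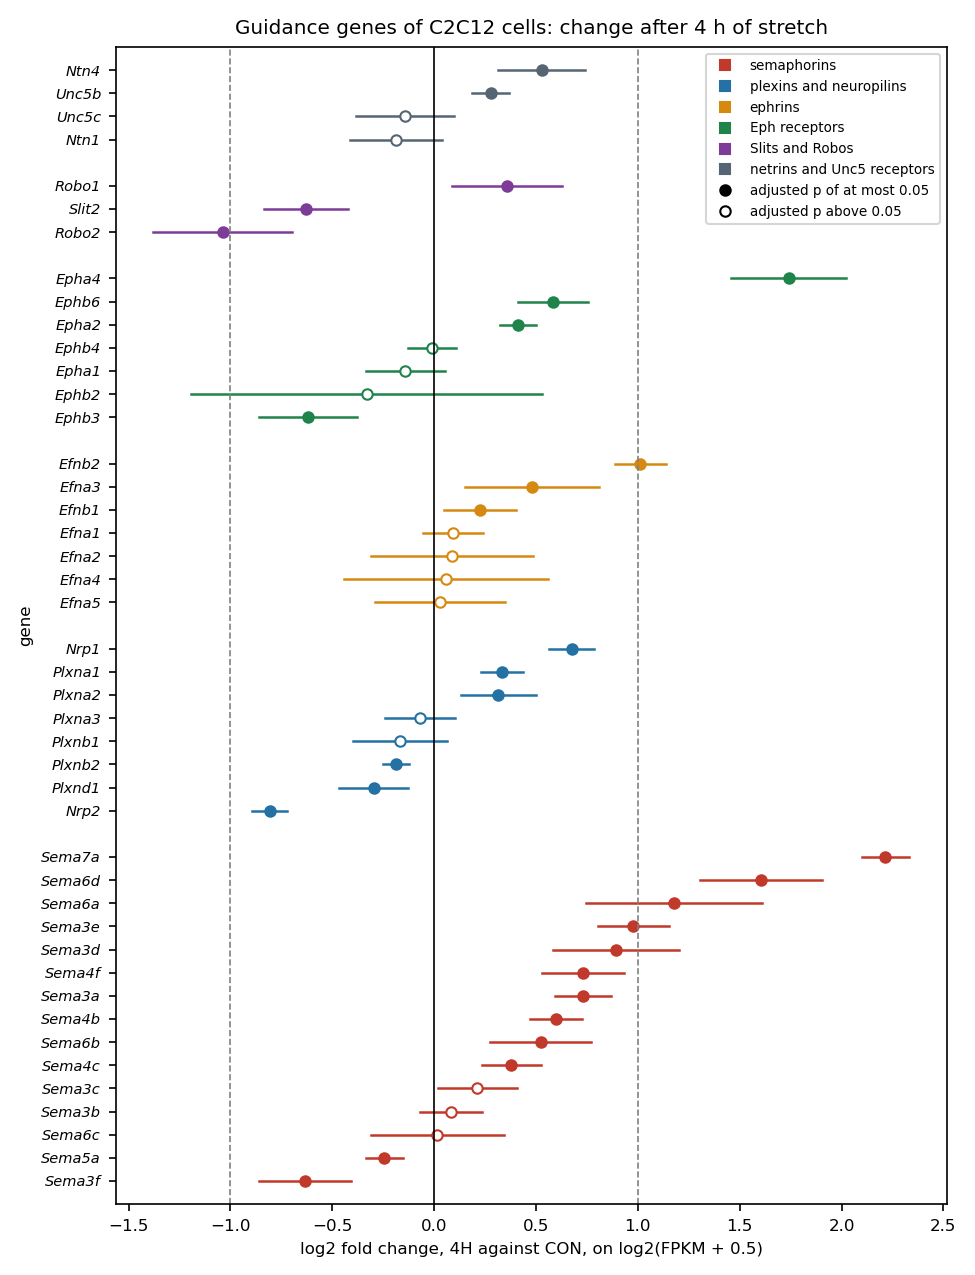
Log2 fold change of the 44 tested guidance genes in the 4H group against the CON group on the log2(FPKM + 0.5) scale (x axis), one row per gene and grouped by family. Points are limma estimates with 95% confidence intervals, filled at an adjusted p of at most 0.05, and dashed lines mark a log2 fold change of 1 in either direction. Sema7a stands farthest to the right at 2.22 and Robo2 farthest to the left at -1.04.

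The promoters of 5 of the 6 genes past both thresholds are shown because these genes had the largest changes. Each line gives the 250 bases before the RefSeq start (GRCm38.p6), 5′ to 3′ on the strand of the gene, for Sema7a (chr9:57939862-57940111, plus strand), Sema6d (chr2:124089719-124089968, plus strand), Epha4 (chr1:77515089-77515338, minus strand), Efnb2 (chr8:8661243-8661492, minus strand) and Robo2 (chr16:74411826-74412075, minus strand). Capitals mark matches to any of 6 motifs searched on both strands.
Sema7a: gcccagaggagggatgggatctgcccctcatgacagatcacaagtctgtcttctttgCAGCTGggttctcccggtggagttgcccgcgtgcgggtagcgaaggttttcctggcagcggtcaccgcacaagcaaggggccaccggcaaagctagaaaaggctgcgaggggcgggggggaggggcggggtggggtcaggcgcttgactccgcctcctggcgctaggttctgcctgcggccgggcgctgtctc
Sema6d: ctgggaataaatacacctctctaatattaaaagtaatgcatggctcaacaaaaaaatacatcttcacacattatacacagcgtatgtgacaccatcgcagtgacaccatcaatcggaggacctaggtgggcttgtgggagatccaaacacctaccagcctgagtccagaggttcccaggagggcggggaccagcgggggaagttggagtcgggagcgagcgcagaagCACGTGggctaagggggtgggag
Epha4: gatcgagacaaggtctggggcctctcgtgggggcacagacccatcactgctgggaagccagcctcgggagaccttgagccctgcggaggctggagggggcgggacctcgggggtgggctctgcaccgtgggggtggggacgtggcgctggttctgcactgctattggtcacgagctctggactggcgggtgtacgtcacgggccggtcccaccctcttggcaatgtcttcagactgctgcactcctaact
Efnb2: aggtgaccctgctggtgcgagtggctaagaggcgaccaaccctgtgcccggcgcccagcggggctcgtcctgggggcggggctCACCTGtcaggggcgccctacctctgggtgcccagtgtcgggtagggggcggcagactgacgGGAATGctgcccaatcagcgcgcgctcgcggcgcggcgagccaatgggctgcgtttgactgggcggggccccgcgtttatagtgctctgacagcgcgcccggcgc
Robo2: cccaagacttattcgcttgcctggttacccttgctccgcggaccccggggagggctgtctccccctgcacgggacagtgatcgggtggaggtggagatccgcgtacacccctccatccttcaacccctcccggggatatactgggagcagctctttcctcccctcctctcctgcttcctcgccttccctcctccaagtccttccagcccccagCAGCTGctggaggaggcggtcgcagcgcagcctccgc
The motifs were AP-1 (TGANTCA), TEAD (GGAATG), the SRF CArG box, the E-box (CANNTG), CRE (TGACGTCA) and SMAD (CAGACA). The capitals are E-boxes in Sema7a, Sema6d and Robo2, an E-box followed by a TEAD match in Efnb2, and Epha4 holds none of the 6. Sema6d and Robo2 have 2 and 3 RefSeq starts, respectively, and the one at the annotated start of the gene was used.

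Of the 44 tested members, 39 were in the table of RefSeq promoters, and Sema6a, Sema3b, Sema3f, Plxna1 and Ntn1 were not. An E-box was found in 17 of them (43.6%), while 66.2% of all 32851 promoters of this length held one. Members entered with 1 start per gene and the 32851 with every RefSeq start, so these and the following shares come from unlike sets. TEAD matches were found in 5 promoters (12.8% against 12.6% of all) and SMAD matches in 7 (17.9% against 17.1%). The AP-1, CRE and SRF motifs each matched 1 member promoter, that of Sema4c, Epha2 and Robo1, respectively, against 6.75%, 1.55% and 1.47% of all promoters. The RefSeq start used for Robo1 lies 354843 bases from the start of the gene in GENCODE, and that of Sema3a 271370 bases. In 27 of the 39 promoters no motif other than the E-box was found. A match of letters is a description and does not show that a factor binds there.

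Semaphorins were the family with the most members tested, 15 of the 20 in the table. Of these, 10 rose (66.7%, against 22.6% of all genes tested), 2 fell (13.3%, against 24.1%) and 3 did not pass, and the median log2 fold change was 0.60. The 10 include Sema3d, which reached the filter only through the 4H group, where it is high. The FPKM of all semaphorins summed to 89.1 ± 1.21 (SD, n = 3) in the CON group and to 141.8 ± 2.29 in the 4H group, which did not overlap (two-sided exact permutation test, p = 0.1, the smallest that 3 libraries against 3 can give).

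Sema7a encodes a semaphorin held at the membrane by a lipid anchor, which binds integrins with the beta-1 chain as well as plexin C1. It was at 6.86, 6.89 and 6.94 FPKM in the CON libraries, against 32.1, 34.1 and 35.3 FPKM after stretch. The CON libraries were nearly equal and every 4H library was far above them. The means were 6.90 ± 0.0373 and 33.9 ± 1.61 FPKM, respectively, a 4.91-fold difference, and the log2 fold change was 2.22 (SE 0.05, adjusted p = 6.07e-08), the largest among the members. The call held under every alternative tried. Sema7a made up 7.74% ± 0.126 of the summed semaphorin FPKM in the CON group and 23.9% ± 0.939 in the 4H group. It lay below Sema5a, Sema3b, Sema3a and Sema4b in the CON group and above them all in the 4H group. Sema5a, which led in the CON group, went from 24.5% ± 0.372 to 12.9% ± 0.293 of the sum. Sema7a lies on the plus strand of chr9:57940112-57962865 (GRCm38).

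**Figure D2:**
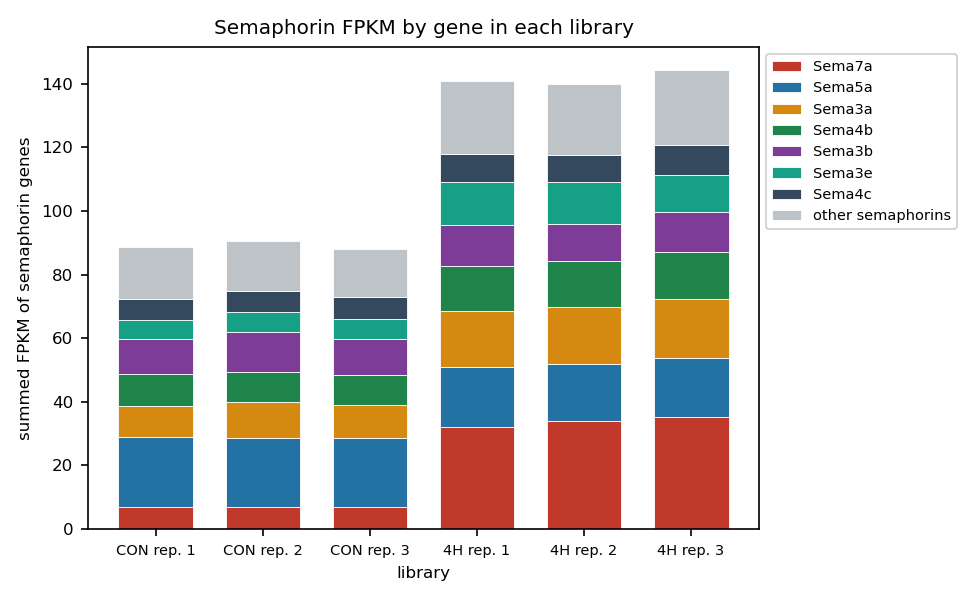
Summed FPKM of all 20 semaphorin genes in each of the 6 libraries (bars, y axis), divided by gene for the 7 most abundant ones. The bars of the 3 4H libraries reach 140.0 to 144.4 FPKM against 88.2 to 90.5 FPKM in the CON libraries, and the Sema7a segment grows most.

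Class 6 semaphorins span the membrane and signal through class A plexins. All 4 members were tested, and 3 of them rose (75.0%, against 22.6% of all genes tested). Sema6d was at 0.701, 0.600 and 0.414 FPKM in the CON group and at 2.74, 2.67 and 2.81 FPKM in the 4H group. All 4H libraries were close to each other and far above the CON libraries, and the means of 0.572 ± 0.146 and 2.74 ± 0.0698 FPKM gave a ratio of 4.79 (log2 fold change 1.60, SE 0.13, adjusted p = 2.91e-05). This call held wherever the gene was tested. Sema6a was at 1.03, 0.615 and 0.441 FPKM against 2.28, 2.35 and 1.85 FPKM. The CON libraries of Sema6a were widely spread, with the first the highest, yet the groups did not overlap (ratio 3.11, log2 fold change 1.18, SE 0.19, adjusted p = 0.00121). With a pseudocount of 1 its log2 fold change was 0.91, under the fold threshold. Sema6b rose from 1.28 ± 0.0291 to 2.07 ± 0.229 FPKM (log2 fold change 0.52, SE 0.11, adjusted p = 0.00463). The fourth, Sema6c, was at 0.622 ± 0.0338 and 0.639 ± 0.134 FPKM with a 95% confidence interval of -0.31 to 0.34 for the log2 fold change.

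Class 3 semaphorins are secreted, and 6 of the 7 in the table were tested. Sema3e, which binds plexin D1 without a neuropilin, was at 6.01, 6.36 and 6.43 FPKM in the CON group and at 13.8, 13.2 and 11.6 FPKM in the 4H group. The groups were well apart, with a ratio of 2.05 and a log2 fold change of 0.98 (SE 0.08, adjusted p = 2.17e-05), just under the fold threshold, which it passed with a pseudocount of 0.1, as TPM, with the ratio of mean FPKM and without 4H replicate 3. Its receptor gene Plxnd1 fell from 8.08 ± 0.408 to 6.49 ± 0.468 FPKM (log2 fold change -0.30, SE 0.07, adjusted p = 0.0112). The ratio of Sema3e to Plxnd1 FPKM was thus 0.778 ± 0.0645 in the CON group and 1.99 ± 0.260 in the 4H group. This ratio had to separate the groups, since both genes did so in opposite directions.

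Sema3a, a ligand that collapses axonal growth cones and uses neuropilin 1, rose from 10.6 ± 0.717 to 17.9 ± 0.522 FPKM (log2 fold change 0.73, SE 0.06, adjusted p = 3.04e-05). It made up 11.9% ± 0.666 of semaphorin FPKM in the CON group and 12.7% ± 0.176 in the 4H group. Sema3d rose from 0.237 ± 0.0375 to 0.868 ± 0.0567 FPKM (log2 fold change 0.89, SE 0.13, adjusted p = 0.000895), with a ratio of the means of 3.67. Its log2 fold change ran from 0.60 to 1.88 over the 13 alternatives in which it was tested, reaching 1 with a pseudocount of 0.1, as TPM and with the ratio of mean FPKM, and the adjusted p passed in each. It was the only tested member whose CON mean was under 0.5 FPKM, so it passed the filter through the 4H group, where it is high. Sema3f, a ligand that prefers neuropilin 2, fell from 3.28 ± 0.256 to 1.93 ± 0.157 FPKM, and all 4H libraries were below the CON libraries (log2 fold change -0.63, SE 0.10, adjusted p = 0.00101). Sema3c was at 4.56 ± 0.144 and 5.37 ± 0.547 FPKM, higher in 3 of 3 4H libraries, with a log2 fold change of 0.21 (95% confidence interval 0.02 to 0.41) that missed the adjusted threshold (adjusted p = 0.0722) and met it as TPM. For Sema3b, at 11.6 ± 0.853 and 12.3 ± 0.545 FPKM, the interval was -0.07 to 0.24.

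Class 4 semaphorins are membrane proteins, several of which bind class B plexins. The 3 tested of 6 rose, as did 22.6% of all genes tested. Sema4f rose from 3.60 ± 0.275 to 6.31 ± 0.512 FPKM (log2 fold change 0.73, SE 0.09, adjusted p = 0.000256). Sema4b went from 9.51 ± 0.499 to 14.6 ± 0.325 FPKM (log2 fold change 0.60, SE 0.06, adjusted p = 6.21e-05). Sema4c, a ligand of plexin B2 that is studied in myoblast differentiation, rose from 6.74 ± 0.0688 to 8.93 ± 0.507 FPKM (log2 fold change 0.38, SE 0.06, adjusted p = 0.00142). In contrast, Sema5a, a membrane protein with thrombospondin repeats, fell from 21.8 ± 0.125 to 18.4 ± 0.401 FPKM (log2 fold change -0.24, SE 0.04, adjusted p = 0.00142).

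Plexins are the signaling receptors of semaphorins and act on small GTPases and the cytoskeleton. Together with the neuropilins, 8 of 11 were tested, 3 rose, 3 fell and 2 did not pass (75.0% passed, against 46.7% of all genes tested), with a median log2 fold change of -0.12. Their FPKM summed to 212.0 ± 2.84 in the CON group and 183.2 ± 0.666 in the 4H group (exact permutation p = 0.1, the smallest possible). The lower sum rests on Nrp2, since without it the family summed to 141.9 ± 1.82 and 143.3 ± 1.17 FPKM (exact permutation p = 0.4).

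The neuropilins moved in opposite directions. Nrp1, a co-receptor for class 3 semaphorins and VEGF, was at 10.1, 10.3 and 9.95 FPKM in the CON group and at 16.3, 16.2 and 16.9 FPKM in the 4H group (ratio 1.63, log2 fold change 0.67, SE 0.05, adjusted p = 1.29e-05). Nrp2 was at 71.8, 69.5 and 69.0 FPKM and at 38.2, 40.6 and 40.7 FPKM, respectively (ratio 0.569, log2 fold change -0.81, SE 0.04, adjusted p = 1.45e-06). Both differences were many times the spread within a group. The ratio of Nrp2 to Nrp1 was 7.12, 6.72 and 6.94 in the CON libraries and 2.35, 2.51 and 2.41 in the 4H libraries. Nrp2 thus remained the more abundant neuropilin in every library, by a smaller margin after stretch. The ratio had to separate the groups, since each neuropilin did so, in opposite directions. In the annotation Nrp1 shares exon sequence on its strand with Mir1903.

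Among the plexins, Plxnb2 had the highest mean level over the 6 libraries of all 44 members, although Epha2 was above it in every 4H library. It was at 89.1, 87.1 and 87.9 FPKM in the CON group and 77.2, 78.3 and 76.7 FPKM in the 4H group. The fall was small but beyond the spread (ratio 0.879, log2 fold change -0.19, SE 0.03, adjusted p = 0.000891). Plxna1 was at 25.8, 24.8 and 27.0 FPKM in the CON group and at 33.8, 32.4 and 32.0 FPKM in the 4H group (log2 fold change 0.33, SE 0.04, adjusted p = 0.000493). Plxna2 was at 3.01, 3.34 and 3.15 FPKM against 4.26, 3.98 and 3.95 FPKM (log2 fold change 0.32, SE 0.08, adjusted p = 0.0120). Both class A receptors rose without overlap. Plxnb1, at 1.78 ± 0.0905 and 1.53 ± 0.104 FPKM, was lower in every 4H library but did not pass (95% confidence interval -0.40 to 0.06). For Plxna3, at 4.71 ± 0.104 and 4.48 ± 0.300 FPKM, the interval was -0.24 to 0.10. Plxnc1, the plexin that binds Sema7a, was close to 0 in both groups, at 0.0134 ± 0.0167 and 0.00195 ± 0.00338 FPKM.

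**Figure D3:**
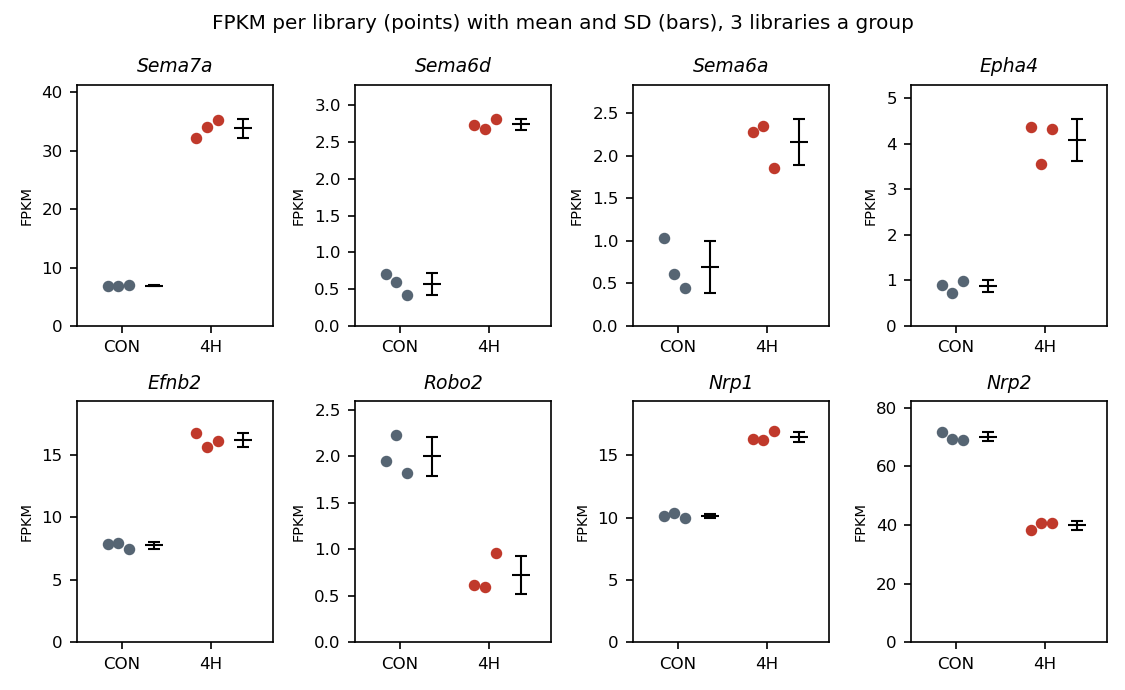
FPKM (y axes, linear from 0) of 8 guidance genes in each library, with points for the 3 CON and 3 4H libraries and bars for the mean and SD of each group. In every panel the groups do not overlap, and Robo2 and Nrp2 are the genes that lie lower in the 4H group.

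Ephrins of the A class are tied to the membrane by a lipid and those of the B class span it. Of the 8 genes, 7 were tested, 3 rose and 4 did not pass, and the median log2 fold change was 0.09. The 42.9% that passed are near the 46.7% of all genes tested, and the calls of Efnb1 and Efna3 were lost under several alternatives given with their values. Efnb2, known from the arterial endothelium and as a ligand of Ephb4, was the most abundant. It was at 7.89, 7.98 and 7.48 FPKM in the CON libraries, against 16.8, 15.7 and 16.2 FPKM after stretch. The 4H libraries were all far above the controls, and the ratio of the means was 2.08 (log2 fold change 1.01, SE 0.05, adjusted p = 2.88e-06). Because this lies at the fold threshold, the log2 fold change ranged from 0.97 to 1.07 over the alternatives and fell short of 1 with a pseudocount of 1, without CON replicate 3 and without 4H replicate 1. The adjusted p passed in each. Efnb2 made up 30.8% ± 1.56 of the ephrin FPKM in the CON group and 44.9% ± 2.34 in the 4H group.

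The other B ephrin tested, Efnb1, was at 3.53, 3.22 and 3.49 FPKM in the CON group and 4.00, 4.02 and 4.20 FPKM in the 4H group (log2 fold change 0.23, SE 0.08, adjusted p = 0.0408). Efna3 was at 0.662, 0.928 and 0.643 FPKM against 1.31, 1.33 and 1.06 FPKM (log2 fold change 0.48, SE 0.14, adjusted p = 0.0241). The groups did not overlap for either gene, yet neither call was stable. The call of Efnb1 was lost with any single library left out and with quantile normalization (adjusted p from 0.012 to 0.115 over all alternatives). That of Efna3 was lost without CON replicate 1 or 3, without 4H replicate 1 or 2, without a filter and with quantile normalization (adjusted p from 0.013 to 0.078). Efna1, Efna2, Efna4 and Efna5 had log2 fold changes between 0.03 and 0.09, and the widest confidence interval, that of Efna4, ran from -0.44 to 0.56. In the table, Efna1, Efna3 and Efna4 are neighbours on chromosome 3 on the same strand, with gaps of 32.8 and 10.4 kb between them, and of these 3 only Efna3 passed.

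Eph receptors are receptor tyrosine kinases, and 7 of 14 were tested. Of these, 3 rose, 1 fell and 3 did not pass (57.1% passed, against 46.7% of all genes tested), with a median log2 fold change of -0.01. Epha4, a receptor that binds ephrins of both classes, was at 0.901, 0.725 and 0.995 FPKM in the CON group and at 4.38, 3.56 and 4.33 FPKM in the 4H group. Every 4H library was well above every CON library, and the ratio was 4.68 (log2 fold change 1.74, SE 0.12, adjusted p = 1.29e-05), a call that held under every alternative in which it was tested. It remained a small part of the family, at 0.885% ± 0.140 and 3.28% ± 0.379 of the summed Eph receptor FPKM.

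Most of the Eph receptor signal came from Epha2, a receptor common in epithelial and migrating cells, which held 66.1% ± 2.23 of it in the CON group and 69.8% ± 0.197 in the 4H group. It was at 67.7, 62.2 and 66.1 FPKM and at 88.6, 87.3 and 85.7 FPKM, respectively, and rose without overlap (log2 fold change 0.41, SE 0.04, adjusted p = 6.24e-05). Ephb6, whose kinase domain is inactive, was at 7.04, 8.53 and 8.08 FPKM against 12.2, 11.8 and 12.1 FPKM (log2 fold change 0.58, SE 0.07, adjusted p = 0.000357). It rose, while Ephb3 fell from 4.06, 4.52 and 3.85 FPKM to 2.68, 2.18 and 2.73 FPKM (log2 fold change -0.62, SE 0.11, adjusted p = 0.00173). Ephb4, the receptor of Efnb2, was at 12.1 ± 0.359 and 12.0 ± 0.372 FPKM, and the interval of its log2 fold change was narrow, from -0.13 to 0.11. The ratio of Efnb2 to Ephb4 FPKM was 0.646 ± 0.0308 in the CON group and 1.36 ± 0.0458 in the 4H group. For Epha1 the interval was -0.34 to 0.05. Ephb2 had the widest interval of the members, -1.19 to 0.53, since it ranged from 2.78 to 6.62 FPKM in the CON group and from 2.22 to 6.10 FPKM in the 4H group, with the lowest value in replicate 3 of both.

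Slits are secreted ligands and Robos are their receptors. Of 7 genes, 3 were tested, and 1 was higher and 2 were lower at the adjusted p, which 46.7% of all genes tested passed. The call of Robo1 was lost under several alternatives. Robo2 was at 1.95, 2.23 and 1.82 FPKM in the CON group and at 0.619, 0.596 and 0.958 FPKM in the 4H group. The groups were clearly apart although the third 4H library was higher than the others, and the ratio was 0.362 (log2 fold change -1.04, SE 0.15, adjusted p = 0.000648). The fold threshold was lost with a pseudocount of 1, without CON replicate 2 and without 4H replicate 1 or 2, with log2 fold changes from -1.46 to -0.80 over all alternatives. Robo1 was at 1.51, 1.67 and 1.48 FPKM in the CON group and at 2.47, 1.86 and 2.08 FPKM in the 4H group (log2 fold change 0.36, SE 0.12, adjusted p = 0.0357). This rise did not pass with a CON library or 4H replicate 1 or 3 left out, without a filter or with quantile normalization (adjusted p from 0.021 to 0.114 over all alternatives). Robo1 and Robo2 lie on opposite strands of chromosome 16, 845.7 kb apart. The ratio of Robo2 to Robo1 was 1.29 ± 0.0529 in the CON group and 0.344 ± 0.107 in the 4H group. Since both genes separated the groups in opposite directions, their ratio had to do so as well. Slit2 was at 7.63, 9.14 and 7.63 FPKM and at 4.79, 5.49 and 4.94 FPKM, respectively, and fell without overlap (ratio 0.624, log2 fold change -0.63, SE 0.09, adjusted p = 0.000698). Slit1 was at 0 in every library, and Slit3 was listed above 0 in 1 library.

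Netrins are laminin-related secreted proteins, and Unc5 receptors relay their repulsive signal. Of 8 genes, 4 were tested, 2 rose and 2 did not pass, a share near the 46.7% of all genes tested. Unc5b, also a dependence receptor that can induce cell death without its ligand, was at 31.7, 29.4 and 31.1 FPKM in the CON group and at 37.2, 37.6 and 37.2 FPKM in the 4H group (log2 fold change 0.28, SE 0.04, adjusted p = 0.000655). Ntn4 was at 1.91, 1.65 and 1.75 FPKM against 2.72, 2.76 and 2.84 FPKM (log2 fold change 0.53, SE 0.09, adjusted p = 0.00197). The 4H libraries of both genes were all above the CON libraries and close to each other. Ntn1, at 3.13 ± 0.146 and 2.69 ± 0.298 FPKM, had an interval of -0.41 to 0.04, and Unc5c, at 5.29 ± 0.706 and 4.73 ± 0.310 FPKM, one of -0.38 to 0.10. Of the other netrin receptors, Dcc was at 0 in all libraries, and Neo1 fell from 63.2 ± 0.705 FPKM without stretch to 55.3 ± 0.182 FPKM after it (log2 fold change -0.19, SE 0.03, adjusted p = 0.000908).

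Read by role, 25 ligands were tested, of which 14 rose (56.0%) and 3 fell (12.0%), with a median log2 fold change of 0.38. Of 19 receptors, 8 rose (42.1%) and 5 fell (26.3%), with a median of -0.07. Over all genes tested 22.6% rose and 24.1% fell, with a median of -0.01, so the share of receptors that fell was near that of all genes. Whether these shares differ was not tested. The median level of the 44 members was 4.83 FPKM, below the 12.1 FPKM of all genes tested, and 13 of them averaged at least 10 FPKM. Of the 6 genes past both thresholds, only Sema7a and Efnb2 averaged as much. None of these 6 shared exon sequence with another annotated gene, while 8 tested members did so with a gene on the other strand, among them Efna3, Plxna1 and Sema4c. Libraries were strand-specific, but the strand setting of the counting is not given in the sources used here. At most 0.746% of the 75-base stretches of a tested member, those of Plxna2, were found in another gene.

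The 24 members under 0.5 FPKM were not tested. Epha5, Epha6, Slit1 and Robo4 were at 0 in every library. A group mean of at least 0.1 FPKM was reached by 7 of the 24. Efnb3 was at 0.245, 0.206 and 0.300 FPKM in the CON group and at 0.519, 0.891 and 0.526 FPKM in the 4H group, and with a mean of 0.448 FPKM it lay closest to the limit from below. The nearest members from above were Sema3d at 0.552 and Sema6c at 0.631 FPKM. Plxna4 was at 0.0436, 0.0484 and 0.0499 FPKM against 0.210, 0.179 and 0.199 FPKM. For Efnb3, Plxna4 and Sema4g the groups did not overlap. Sema4a had means of 0.363 and 0.359 FPKM in the CON and 4H group, Sema4d of 0.238 and 0.247, Sema3g of 0.190 and 0.0771, Sema4g of 0.0467 and 0.125 and Robo3 of 0.0148 and 0.117 FPKM.

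A wider list of co-receptors, adaptors, GTPase regulators and further ligands of the same pathways held 81 symbols, of which 80 were in the table and 59 were tested. By the adjusted p alone, 27 were higher and 10 lower after stretch (62.7% in all, against 46.7% of all genes tested), with a median log2 fold change of 0.09. The list was chosen with earlier results of these data known, so its shares only describe it. Past both thresholds were 2 (3.39%), Lrrc4c and Flt1, close to the 3.88% of all genes. Lrrc4c, a receptor of netrin-G ligands, was at 1.52, 2.10 and 1.51 FPKM in the CON group and at 6.01, 5.46 and 5.14 FPKM in the 4H group (ratio 3.24, log2 fold change 1.46, SE 0.12, adjusted p = 3.62e-05). Flt1, a VEGF receptor that can pair with neuropilins, was at 0.876, 0.931 and 1.03 FPKM against 2.56, 2.56 and 2.20 FPKM (ratio 2.58, log2 fold change 1.02, SE 0.11, adjusted p = 0.00014). The log2 fold change of Flt1 fell short of 1 with a pseudocount of 1, with quantile normalization and without CON replicate 1 or 4H replicate 1 or 2 (0.82 to 1.37 over all alternatives). Both genes rose with no overlap. The summed level of the endothelial markers, given above, was also higher in every 4H library, and its part in the rise of Flt1 was not tested.

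Next came Mical2, an enzyme that oxidizes actin and whose family acts below plexins, at 21.8, 21.5 and 21.0 FPKM in the CON group and 43.5, 41.0 and 40.4 FPKM in the 4H group (ratio 1.94, log2 fold change 0.94, SE 0.04, adjusted p = 1.11e-06). The largest falls in the list were those of Rgma, Fyn and Adgrl2. Rgma, a ligand of neogenin, was at 3.26, 2.85 and 2.40 FPKM against 1.67, 2.23 and 1.52 FPKM (log2 fold change -0.53, SE 0.15, adjusted p = 0.0175), and the call was lost without a filter, without CON replicate 1 and without 4H replicate 3. Fyn, a kinase of the Src family used by plexin A and ephrin A signaling, fell from 32.2, 30.3 and 31.0 FPKM to 23.6, 22.3 and 20.7 FPKM (log2 fold change -0.48, SE 0.05, adjusted p = 0.000171). Adgrl2, a latrophilin, was at 9.63, 10.3 and 9.86 FPKM against 7.00, 6.79 and 7.48 FPKM (log2 fold change -0.46, SE 0.06, adjusted p = 0.000482). For none of these 4 genes did the groups overlap. Itga1, which forms an integrin that binds Sema7a with the beta-1 chain, was under the filter, at 0.301, 0.233 and 0.253 FPKM in the CON group and 0.229, 0.376 and 0.214 FPKM in the 4H group. Itgb1, the beta-1 chain, was at 204.6, 214.4 and 208.8 FPKM and at 260.8, 253.8 and 261.2 FPKM, respectively, and rose (log2 fold change 0.30, SE 0.03, adjusted p = 6.24e-05).

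**Figure D4:**
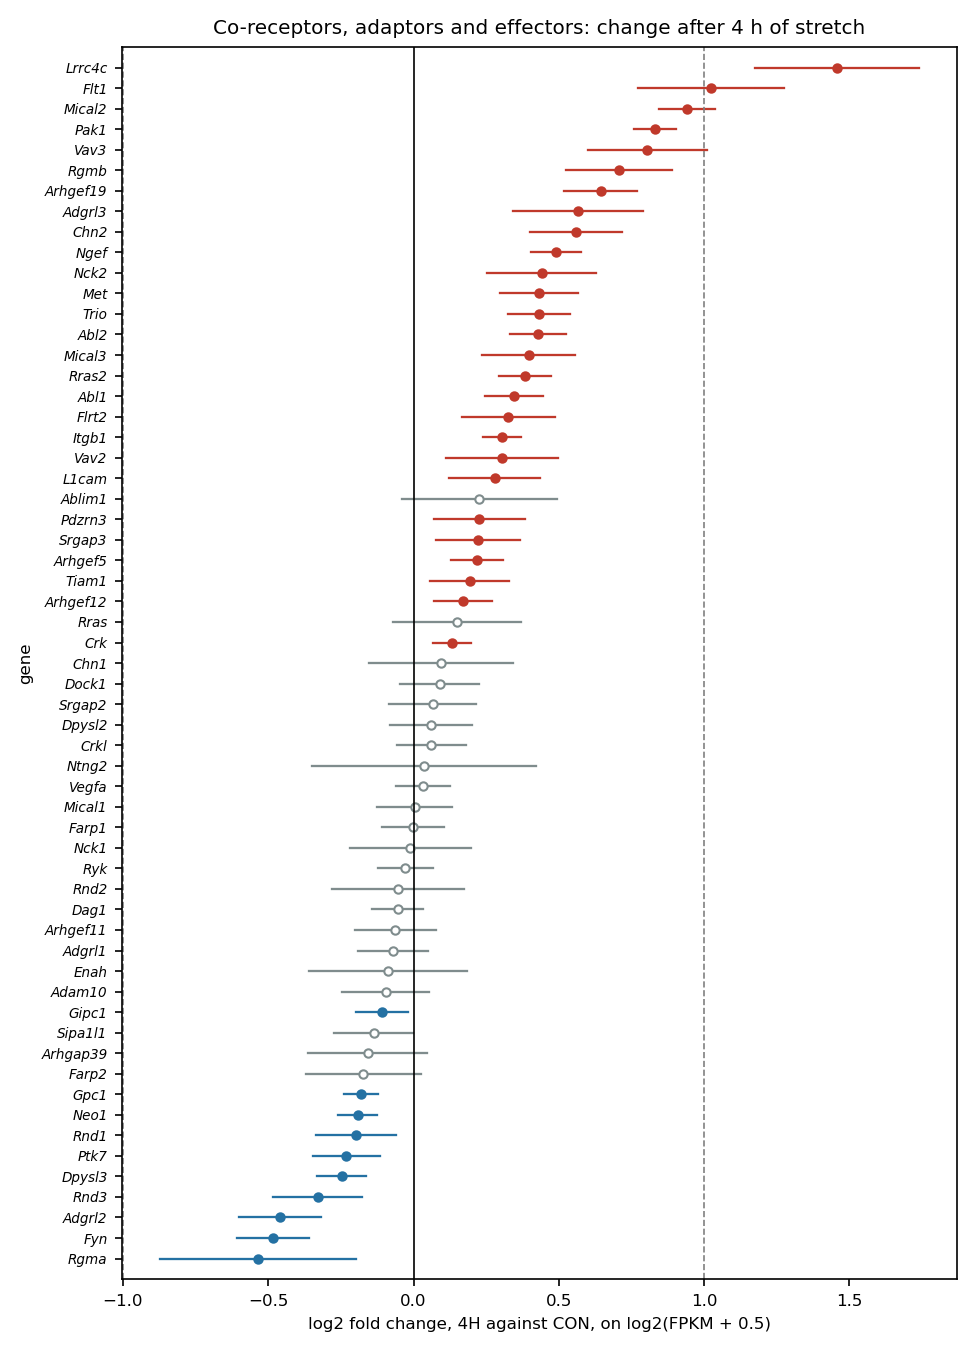
Log2 fold change of the 59 tested genes of the wider list in the 4H group against the CON group on the log2(FPKM + 0.5) scale (x axis), one row per gene in order of change. Points are limma estimates with 95% confidence intervals, red for higher and blue for lower at an adjusted p of at most 0.05 and open for the others, and Lrrc4c and Flt1 lie beyond the dashed line at 1.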

How the data were processed

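RNA of C2C12 cells was sequenced as 3 CON and 3 4H libraries, which were poly(A)-selected, strand-specific and paired-end. The authors deposited 1 table of FPKM values with a column per library. The build was mm10 according to the submitters' processing notes, and which aligner, counter and annotation were used is not given in the sources used here. FPKM holds no fragment numbers, so no counting error is given, a count model such as the one named in the methods of the study could not be used, and precision rests on the spread of 3 libraries.

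Genes averaging at least 0.5 FPKM were tested with limma 3.58.1 (R 4.3.3), by lmFit and trended eBayes on log2(FPKM + 0.5), two-sided, with Benjamini-Hochberg adjustment over all 11593 genes, without a replicate block. To be past both thresholds, which are those of the study, a gene needed a log2 fold change of 1 or more in size together with an adjusted p of 0.05 or less. Summed levels of families were compared with the exact permutation test of SciPy 1.17.1 (Python 3.11.15). The fit was tested on simulated data with 200 of 11593 genes changed by 1.5 on the log2 scale, of which it recovered 96%, with 0% of calls false. A call there had to be past both thresholds and noise was drawn independently for each gene. The simulation thus does not test calls by the adjusted p alone. Positions came from GENCODE M21 (GRCm38) and promoters from RefSeq (GRCm38.p6).

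The members, the wider list, the marker lists, the motifs and the rule for naming genes were chosen with earlier results of these data known. The rule gives values in each library for members past both thresholds, for the most abundant member of each family and for up to 4 members of a family with the largest change at an adjusted p of at most 0.05. From the wider list it takes genes past both thresholds and the 3 largest rises and falls, and Itga1, Itgb1, Dcc and Neo1 were added outside the rule. Alternatives were pseudocounts of 0.1 and 1, no filter or filters at 1 and 5 FPKM, a replicate block, no trend, array weights, TPM, median-of-ratios and quantile scaling, group means without a pseudocount for the fold, and each library left out in turn.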

Additional observations from a re-analysis of the deposited data

How the results depend on the processing

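The 5 members past both thresholds in the higher direction became 3 with a pseudocount of 1 and 2 with a filter at 5 FPKM, which left 20 members in the test. The single lower one became 0 under both. With a pseudocount of 0.1, as TPM and with the ratio of mean FPKM, 7 members were higher, and the remaining alternatives that used all libraries gave 5. With libraries left out in turn the range was 4 to 6 for the higher and 0 to 1 for the lower members, with Robo2 lost without CON replicate 2, 4H replicate 1 and 4H replicate 2. At an adjusted p of at most 0.05 the 22 higher and 8 lower members became 11 and 5 with a filter at 5 FPKM. Otherwise 19 to 24 were higher and 8 lower with all libraries, and 18 to 20 and 8 with libraries left out. In the wider list, 21 to 28 genes were higher and 8 to 10 lower with all libraries, and 23 to 27 and 7 to 10 with libraries left out. Of the values of single members under the alternatives, 739 stayed on their side of the adjusted p threshold, 22 were no longer past it, 1 newly passed it, and no value that passed changed sign. The cause of these differences was not tested. With the replicate number as a block (replicate block), 5 members were higher and 1 lower past both thresholds, 20 and 8 at the adjusted p alone, where Efnb1 and Robo1 no longer passed, and 26 and 9 in the wider list. Replicates were numbered by the descriptions in the labels, where 4H replicates 2 and 3 are the libraries titled 4H3 and 4H4. The deviations of same-numbered libraries correlated at 0.02, -0.09 and -0.13. Over all genes tested these libraries thus did not deviate together, which cannot show whether the samples were made in pairs. No scaling moved the median of all genes by more than 0.1 on the log2 scale, and it went from -0.01 to 0.03 with TPM.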

Other observations

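Further genes of the wider list, picked after their values were seen, are described by what they are known to do. Among exchange factors that act in Eph receptor signaling, Vav3 rose from 2.38 ± 0.182 (SD, n = 3) to 4.53 ± 0.293 FPKM in the 4H group (log2 fold change 0.80, SE 0.09, adjusted p = 0.000173, limma and Benjamini-Hochberg). Ngef, also called ephexin, rose from 31.3 ± 0.353 to 44.1 ± 1.35 FPKM (log2 fold change 0.49, SE 0.04, adjusted p = 1.87e-05), and its relative Arhgef19 from 9.04 ± 0.338 to 14.4 ± 0.484 FPKM (log2 fold change 0.64, SE 0.05, adjusted p = 3.7e-05). Arhgef5 rose by less, with a log2 fold change of 0.22 (SE 0.04, adjusted p = 0.00217). Pak1, a kinase that binds active Rac and Cdc42, was at 38.9 ± 0.705 and 69.6 ± 0.745 FPKM (log2 fold change 0.83, SE 0.03, adjusted p = 5e-07), with all 4H libraries above all CON libraries.

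The repulsive guidance molecules Rgma and Rgmb, both ligands of neogenin, moved in opposite directions. Rgmb rose from 3.34 ± 0.167 to 5.77 ± 0.379 FPKM (log2 fold change 0.71, SE 0.08, adjusted p = 0.000182), while Rgma was at 2.83 ± 0.427 and 1.81 ± 0.376 FPKM, the less stable call described above. The latrophilins, partners of Flrt proteins, differed as well. Adgrl3 rose from 1.99 ± 0.173 to 3.18 ± 0.208 FPKM (log2 fold change 0.57, SE 0.10, adjusted p = 0.00176), Adgrl2 fell, and Adgrl1 did not pass (95% confidence interval of the log2 fold change -0.19 to 0.05). Of the Mical genes, Mical2 and Mical3 rose, by 0.94 and 0.40 on the log2 scale, and the interval for Mical1 was -0.13 to 0.13. Differences between the members of a pair were not tested.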
